A study of Mus musculus with 28 samples.

Results

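The genes described here encode enzymes of the urea cycle, glutamine synthesis and the main alanine and aspartate aminotransferases. They are 9 of the 54446 genes counted in the series and were taken by name: Cps1, Otc, Ass1 and Asl of the urea cycle, Glul, and the aminotransferase genes Gpt, Gpt2, Got1 and Got2. Polyadenylated RNA was sequenced from liver and kidney of male C57BL/6 mice aged 8 weeks, gavaged for 7 days with water or with nicotinamide mononucleotide (NMN), a precursor of NAD+. In one schedule NMN was gavaged once daily at 1340 mg/kg/d, with 4 NMN-treated and 4 water-treated libraries per organ. In the other it was gavaged 2 times a day at 2680 mg/kg/d, with 3 and 3 per organ. Each schedule had its own water-gavaged controls. Dose and number of gavages changed together and cannot be told apart. The schedules also differed in their libraries. Mitochondrial genes took 9.10% to 10.6% of counted reads in the once-daily water kidneys. In the water kidneys of the other schedule they took 19.8% to 21.6%. The study names 2 sequencers, without saying which libraries ran on which. The part of such library differences in comparisons between schedules was not tested. The replicates are biological, but neither the labels nor the methods of the study say which liver and kidney libraries came from the same mouse. Between 12688324 and 33872983 reads per library were counted on genes. Levels are given as CPM, counts per 1000000 counted reads, scaled by edgeR's TMM factors over the 28 libraries. Comparisons between genes use CPM per kb of the principal transcript.

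The urea cycle disposes of ammonia from amino acid breakdown. Cps1 makes carbamoyl phosphate in the mitochondrion, Otc joins it to ornithine, and Ass1 and Asl add the second nitrogen from aspartate and release arginine. In the liver lobule these enzymes are spread through periportal hepatocytes, while Glul, glutamine synthetase, is known for a narrow ring of hepatocytes around the central vein, where it catches the ammonia that passed the urea cycle. Gpt and Got1 encode the cytosolic alanine and aspartate aminotransferases, whose activity in serum is a common test of liver injury, and Gpt2 and Got2 encode their mitochondrial forms. In the kidney, Ass1 and Asl make arginine from circulating citrulline.

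The RefSeq promoter table for GRCm38.p6 matched 6 of the 9 genes, Otc, Ass1, Glul, Gpt2, Got1 and Got2. The sequences of 3 are shown because these genes differ most in the results: Glul passed the test with NMN, Ass1 was abundant in both organs, and Otc was close to absent from the kidney. Each is the 250 bases before the annotated start, 5′ to 3′ on the + strand, with the matches to 3 core promoter motifs in capitals, searched on both strands. The first is the TATA box, written TATAAA. The second is the CCAAT box, with the letters CCAAT. The third is the GC box, which reads GGGCGG.
Glul, chr1:153899679-153899928: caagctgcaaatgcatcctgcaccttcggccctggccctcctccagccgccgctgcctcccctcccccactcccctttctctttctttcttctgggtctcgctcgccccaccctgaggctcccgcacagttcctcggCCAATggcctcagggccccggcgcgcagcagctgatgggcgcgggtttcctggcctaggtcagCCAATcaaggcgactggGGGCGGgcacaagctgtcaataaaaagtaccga
Ass1, chr2:31470020-31470269: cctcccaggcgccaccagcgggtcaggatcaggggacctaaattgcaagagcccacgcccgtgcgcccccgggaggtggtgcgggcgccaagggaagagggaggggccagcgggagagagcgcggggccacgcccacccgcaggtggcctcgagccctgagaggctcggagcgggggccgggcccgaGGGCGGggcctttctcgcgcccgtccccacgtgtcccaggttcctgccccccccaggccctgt
Otc, chrX:10252055-10252304: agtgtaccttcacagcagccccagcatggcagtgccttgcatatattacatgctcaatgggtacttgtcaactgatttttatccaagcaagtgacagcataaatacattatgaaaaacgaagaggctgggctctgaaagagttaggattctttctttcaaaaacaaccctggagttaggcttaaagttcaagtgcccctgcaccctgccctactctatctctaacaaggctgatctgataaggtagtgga
The Glul window held 2 CCAAT boxes, beginning 113 and 50 bases before the start, and 1 GC box, beginning 33 bases before it. The Ass1 window held 1 GC box and no CCAAT box, and the Otc window held none of the 3 motifs. Of the others, Got1 had 5 CCAAT boxes, Gpt2 had 2 GC boxes, and Got2 had 1 TATA box. No matches overlapped. Among all 32851 windows of that length, 12.4% held the TATA box, 33.8% the CCAAT box and 32.7% the GC box. GC content was 75.6% for Ass1, 64.8% for Glul and 43.6% for Otc, against a median of 52.4%.

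In water-treated mice, all 9 genes were higher in liver than in kidney in both schedules, though without TMM factors Ass1 at 1340 mg/kg/d turned to -0.04 on the log2 scale. The background for such a call was 30.9% of 14599 genes in the 1340 mg/kg/d schedule and 31.0% of 14844 in the 2680 mg/kg/d schedule. The organ labels matched their markers. Alb, serum albumin, was at 102322 ± 15166 CPM (SD, n = 4) in liver and 60.8 ± 9.19 in kidney of the 1340 mg/kg/d water mice. Umod, a protein of the thick ascending limb, was at 1522 ± 170 CPM in kidney and 3.96 CPM in liver. Cyp2e1, a pericentral cytochrome P450 that kidney also expresses, was at 10120 ± 1693 CPM in liver and 1113 ± 160 in kidney.

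**Figure D1:**
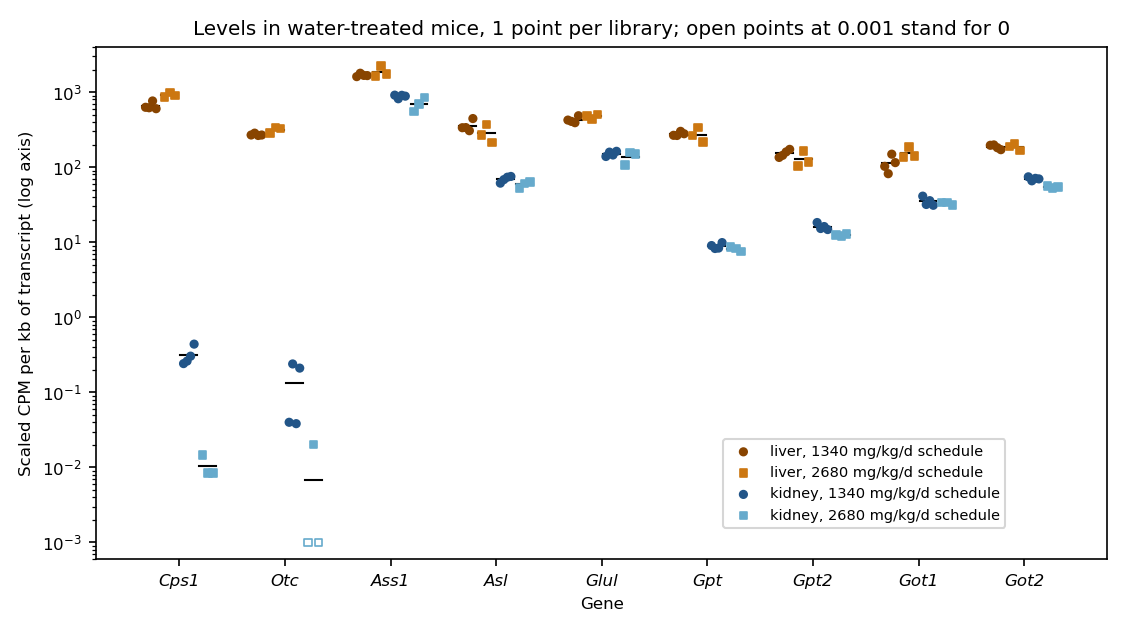
Level of each gene in every water-treated library, in TMM-scaled CPM per kb of the principal transcript on a log axis, by organ and schedule, with lines at the group means. Cps1 and Otc separate the organs by more than 3 orders of magnitude, and Ass1 by the least of the 9.

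Per length, Ass1 was the most abundant of the group in liver, at 1685 ± 74.5 CPM per kb (SD, n = 4) in the 1340 mg/kg/d water livers. Cps1 followed at 654 ± 74.1 CPM per kb, then Glul at 428 ± 40.9 and Asl at 356 ± 61.0, the last pair differing by about their spread. Gpt at 278 ± 16.6 and Otc at 272 ± 8.76 CPM per kb did not differ beyond theirs. The other mitochondrial and cytosolic forms closed the order, with Got2 at 187 ± 12.6, Gpt2 at 153 ± 16.9 and Got1 at 112 ± 28.2 CPM per kb. In the 2680 mg/kg/d water livers the first 3 places were unchanged, from Ass1 at 1871 ± 329 (n = 3) to Glul at 475 ± 35.1 CPM per kb, and Gpt2 was last at 128 ± 31.4. Together the 9 genes took 0.808% ± 0.0511 of the counted reads in the 1340 mg/kg/d water livers and 0.349% ± 0.0102 in the kidneys of the same schedule.

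The kidney order was headed by the arginine and glutamine genes. Ass1 was at 881 ± 44.1 CPM per kb (SD, n = 4) and Glul at 152 ± 11.2 in the 1340 mg/kg/d water kidneys. Got2 at 70.3 ± 3.55 and Asl at 69.7 ± 6.29 CPM per kb did not differ beyond their spread, and they changed places in the 2680 mg/kg/d schedule. Got1 was at 35.0 ± 4.61, Gpt2 at 16.1 ± 1.58 and Gpt at 8.89 ± 0.756 CPM per kb. Gpt was above Gpt2 in liver, with a ratio per length of 1.83 ± 0.152 within libraries, and below it in kidney, at 0.555 ± 0.0791. Got1 was below Got2 in both organs, at 0.607 ± 0.177 of it in liver and 0.497 ± 0.0448 in kidney.

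The organ difference was smallest for Ass1. Its 4 water livers of the 1340 mg/kg/d schedule were at 2734, 3033, 2839 and 2821 CPM, and its 4 water kidneys at 1548, 1386, 1541 and 1501. The groups did not overlap, as for 28.6% of all genes in that direction, and the log2 difference was 0.91 (SE 0.11, adjusted p = 7.98e-06, edgeR quasi-likelihood test). Without TMM factors the same difference was -0.04, so the direction for Ass1 in that schedule rests on the scaling. The median of all genes was -0.10 with TMM factors and -1.05 without them. In the 2680 mg/kg/d schedule it was 1.38 (SE 0.17). Glul was higher in liver by 1.47 (SE 0.12) and 1.75 (SE 0.16) on the log2 scale, Got2 by 1.39 and 1.75, and Got1 by 1.66 and 2.20. Asl was higher by 2.33 and 2.23, Gpt2 by 3.22 and 3.33, and Gpt by 4.94 and 5.03.

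Cps1 and Otc were near absent from kidney, and the trace that was counted there followed the schedule. In the 1340 mg/kg/d water kidneys Cps1 had 29 to 55 counts per library and Otc 2 to 13. These levels were 0.0476% of the liver level for Cps1 and 0.0486% for Otc. Alb in the same libraries stood at 0.0594% of its liver level, and Apoa1, an apolipoprotein of hepatocytes, at 0.0512%. In the 2680 mg/kg/d water kidneys Cps1 had 4 counts and Otc 1 over the 3 libraries together, and Alb stood at 0.00472%. Of 6 hepatocyte markers, Apob and Ttr were well above that share in kidney, at 2.28% and 0.666% of liver in the 2680 mg/kg/d schedule. The summed level of the 6 in the water kidneys was 231 to 251 CPM at 1340 mg/kg/d and 176 to 228 CPM at 2680 mg/kg/d, with Apob and Ttr making up most of it. The liver libraries carried the reverse trace: 6 kidney tubule markers summed to 53.7 to 59.4 CPM in the 1340 mg/kg/d water livers and 1.90 to 14.1 CPM in those at 2680 mg/kg/d, with Kap the most abundant. The part of such reads in the kidney values of Cps1 and Otc was not tested.

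**Figure D2:**
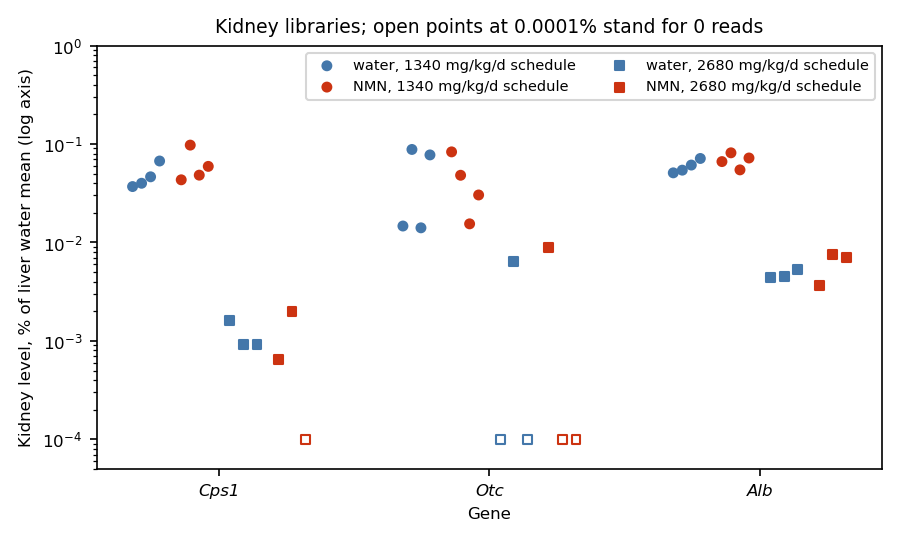
Level of Cps1, Otc and Alb in each kidney library, as a percent of the mean of the water-treated livers of the same schedule, on a log axis, with open points for libraries without a read. At 1340 mg/kg/d the group means of the 3 genes lie between 0.0443% and 0.0686%, with single libraries of Otc spread most widely, and at 2680 mg/kg/d the means of all 3 lie lower by more than 10 times.

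The liver excess was therefore computed against the level in each schedule. At 1340 mg/kg/d it was 2099-fold for Cps1 and 2028-fold for Otc. At 2680 mg/kg/d the few kidney counts gave 85481-fold for Cps1 (exact Poisson 95% interval 33386 to 313730) and 49365-fold for Otc (8860 to 1949830). The intervals cover counting error only. All these folds use TMM-scaled CPM and are smaller without the factors. Unscaled, the 1340 mg/kg/d water mice had 2689 CPM of Cps1 in liver and 2.51 in kidney, and 465 and 0.450 CPM of Otc. At 2680 mg/kg/d the unscaled values were 3352 and 0.0750 CPM for Cps1 and 484 and 0.0204 CPM for Otc.

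With NMN at 1340 mg/kg/d, none of the 9 genes passed the test in liver. The background was 0.0161% of 12449 genes, 2 genes in edgeR, while 854 had an unadjusted p under 0.05 and DESeq2 called 74 genes, none of the 9 among them. Of the 9, Ass1 alone had an unadjusted p under 0.05. The 5 urea cycle and glutamine genes all had negative estimates, with a median of -0.11 on the log2 scale beside -0.003 over all genes. Ass1 was the lowest, at -0.38 (SE 0.11, 95% interval -0.62 to -0.14, adjusted p = 0.446 in edgeR). Its NMN livers were at 2274, 2294, 2058 and 2087 CPM, all below the 4 water livers given above. Otc also had no overlap, at 605, 594, 607 and 534 CPM with NMN and 623, 660, 614 and 623 with water, but the estimate was small, -0.09 (SE 0.11). NMN liver 4, the lowest in Otc, had 12.8% of reads that HTSeq-count placed on no feature, a class that can include intron reads. The other 7 livers had 4.91% to 7.44%. NMN liver 4 also had the highest mitochondrial share, 5.77%. Without it Otc was at -0.07 and Ass1 at -0.37, neither called. Non-overlap was seen for 1.82% of all genes in that direction. The intervals for Cps1 and Asl reached from -0.40 and -0.56 to 0.17 and 0.08. Glul was at 1194 ± 114 CPM with water and 1107 ± 113 with NMN, a log2 difference of -0.09 (SE 0.13, interval -0.37 to 0.18).

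**Figure D3:**
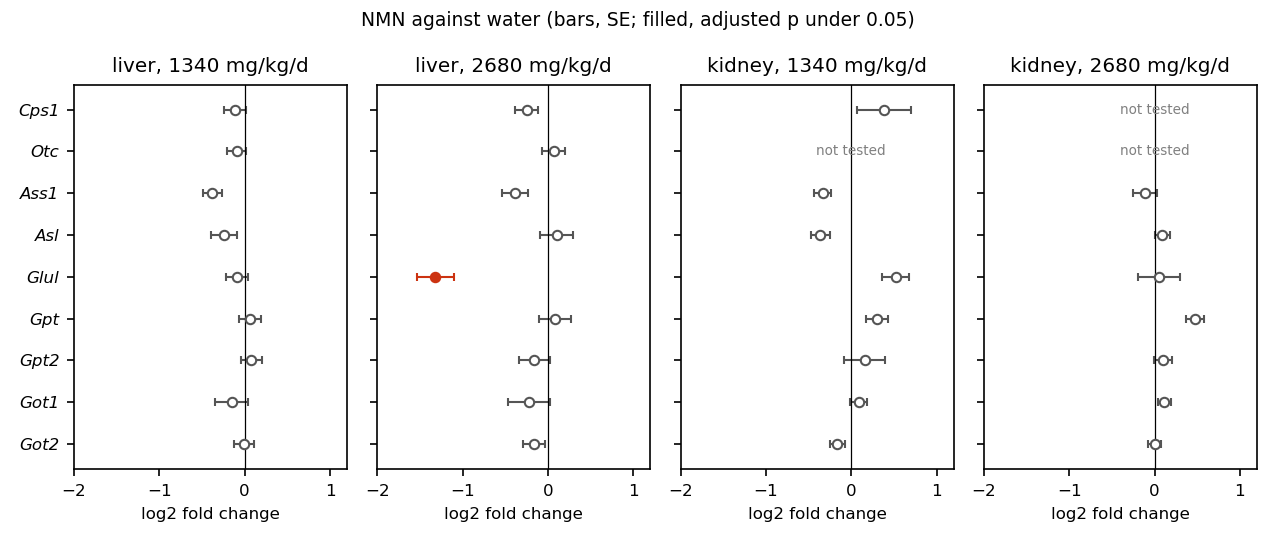
Log2 fold change of NMN against water for each gene in the 4 comparisons, with SE bars and filled points where the adjusted p was under 0.05. Glul in liver at 2680 mg/kg/d, at -1.32, is the single filled point. In kidney, Otc at 1340 mg/kg/d and both Cps1 and Otc at 2680 mg/kg/d were too low to be tested.

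With NMN at 2680 mg/kg/d, Glul was down-regulated in liver, and it was the one gene of the group to pass the test there. The 3 water-treated livers were at 1338, 1221 and 1416 CPM, and the 3 NMN-treated livers at 328, 580 and 666 CPM. Every NMN library was below every water library, and the spread within the NMN group was the wider. Reads that HTSeq-count placed on no feature were 5.06%, 3.90% and 4.21% in the NMN livers. In the water livers they were 3.62%, 3.27% and 3.47%, with no overlap. NMN liver 1, the lowest in Glul, also had the highest mitochondrial share, 9.24% against 5.74% to 7.37% with water, and a kidney tubule marker sum of 45.0 CPM, most of it Kap, against 1.90 to 14.1 CPM with water. Without NMN liver 1 the Glul fold change was -1.10 on the log2 scale (adjusted p = 0.00193 in edgeR). The part of the reads on no feature in the Glul value was not tested. The means were 1325 ± 98.0 CPM (SD, n = 3) and 524 ± 176, with a log2 fold change of -1.32 (SE 0.22, 95% interval -1.80 to -0.84) and an adjusted p of 0.00831 from edgeR's quasi-likelihood test across 12477 genes. It was called in each of the 6 fits that left out 1 library, with log2 fold changes from -1.53 to -1.10. The exact permutation test over these 6 libraries gave p = 0.1, the smallest it can give. Fewer cells of a type and less RNA per cell cannot be told apart in such bulk libraries. Glul exons share 3.49% of their length with other genes, Teddm2 on the opposite strand and Mir8114, and reads were counted without regard to strand.

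Set against that call, 7.08% of all genes tested were called, 4.03% lower and 3.05% higher. Without TMM factors 819 genes were called higher and 326 lower in place of 380 and 503, and the median of all genes was at 0.15 in place of 0.004. Ass1, the argininosuccinate synthase, had again no overlap, at 2765, 3808 and 2946 CPM with water and 2525, 2341 and 2272 with NMN, with a log2 fold change of -0.39 (SE 0.15, adjusted p = 0.141 in edgeR). Non-overlap in that direction was seen for 16.0% of all genes there. Cps1 was at 5098 ± 379 CPM with water and 4207 ± 501 with NMN, a log2 difference of -0.25 (SE 0.13, interval -0.54 to 0.04). Otc was at 0.07 (SE 0.13) and Asl at 0.10 (SE 0.19). Per length, Glul went from 0.520 ± 0.069 of Cps1 in the water livers to 0.247 ± 0.072 in the NMN livers, with no overlap between the groups. At 1340 mg/kg/d the ratio was 0.663 ± 0.120 with water and 0.669 ± 0.106 with NMN.

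The 4 aminotransferase genes did not pass the test in liver at either dose, and none had an unadjusted p under 0.05, as 854 of 12449 genes had at 1340 mg/kg/d and 3072 of 12477 at 2680 mg/kg/d. Gpt, the gene for the cytosolic alanine aminotransferase, was at 489 ± 111 CPM with water and 510 ± 113 with NMN at 2680 mg/kg/d. The log2 difference was 0.08 with an interval of -0.33 to 0.49. Got1 was at 318 ± 54.3 and 265 ± 88.6 CPM, a difference of -0.23 with an interval of -0.78 to 0.33. Got2 was at -0.16 (SE 0.13) and Gpt2 at -0.16 (SE 0.18). Got2 exons share 9.0% of their length with Gm45760 on the opposite strand, and a pseudogene, Got2-ps1, could share its reads. The NMN livers spread widely for Got1, at 286, 168 and 342 CPM. At 1340 mg/kg/d the 4 estimates lay between -0.15 and 0.08.

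Of 3 listed genes for glutamate dehydrogenase and the glutaminases, 1 was called in the same liver comparison, Glud1. Glud1, glutamate dehydrogenase, which frees ammonia from glutamate, was at 1820, 1557 and 1566 CPM with water and 814, 866 and 1032 with NMN. It was down-regulated by 0.84 on the log2 scale (SE 0.14, adjusted p = 0.00672, edgeR). Oat, ornithine aminotransferase, which sits beside Glul in pericentral hepatocytes and turns ornithine toward glutamate, was at 918, 889 and 1125 CPM with water and 385, 437 and 420 with NMN. Its log2 fold change was -1.22 (SE 0.14, adjusted p = 0.00143). Gls2, the liver glutaminase, which frees ammonia from glutamine, was at 551, 737 and 603 CPM with water and 1243, 789 and 781 with NMN. The groups did not overlap, as for 13.1% of all genes in that direction, but the estimate of 0.61 (SE 0.21) had an adjusted p of 0.108. Per length, Glul was 1.98 ± 0.390 times Gls2 in the water livers and 0.569 ± 0.287 times in the NMN livers. Without any 1 of the 6 libraries Glud1 and Oat were still called.

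**Figure D4:**
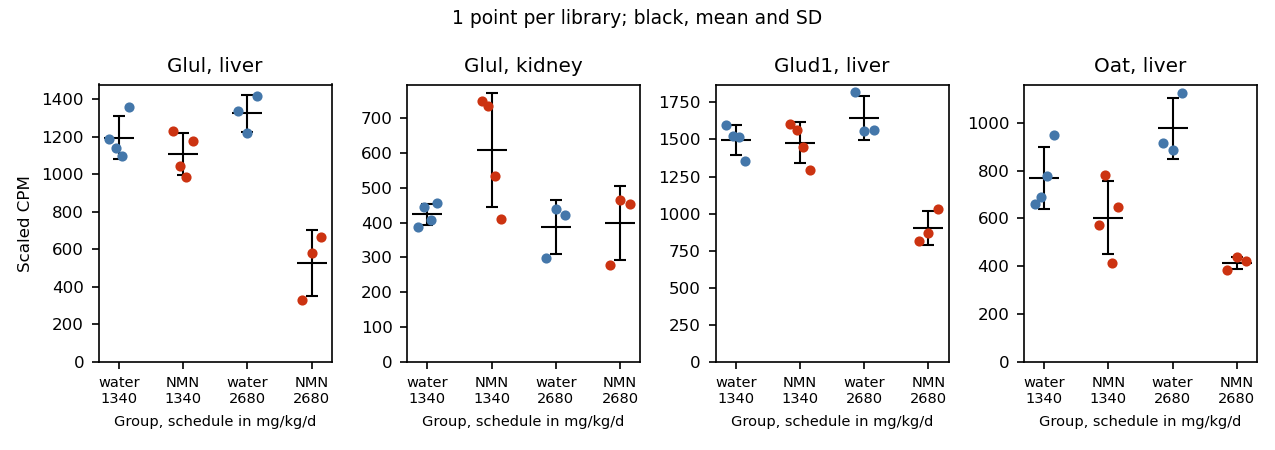
TMM-scaled CPM of Glul in liver and kidney and of Glud1 and Oat in liver, 1 point per library, with the mean and SD of each group. In liver at 2680 mg/kg/d all 3 NMN libraries lie below all 3 water libraries for each gene, and the Glul panel for kidney shows 2 of the 4 NMN libraries at 1340 mg/kg/d near 740 CPM.

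Counts over whole lists placed these genes among their pathways. For these and the liver lists that follow, the background at 2680 mg/kg/d was 4.03% of all genes called lower and 3.05% called higher. Of 14 other aminotransferases, 11 were tested in liver at 2680 mg/kg/d. Oat was called lower and Kyat3, a kynurenine aminotransferase, higher at 0.70 (SE 0.14), and the median of the list was -0.12. Of 25 genes of amino acid breakdown, all were tested, 2 were called lower and none higher, and the median was -0.25 beside 0.004 over all genes. The 2 were Aldh4a1, which completes proline and ornithine breakdown to glutamate (-0.74, adjusted p = 0.0133), and Pcca, a subunit of propionyl-CoA carboxylase (-0.65, adjusted p = 0.0317). Aldh4a1 exons share 32.5% of their length with Gm21969 on the same strand, and the part of this overlap in its value was not tested. In the same list 14 genes were lower with no overlap between the groups, against 16.0% of all genes. Of 13 tested genes of arginine, creatine and polyamine metabolism, Gamt, the last enzyme of creatine synthesis, was lower at -1.46 (adjusted p = 0.00467) and Agmat, agmatinase, at -0.65 (adjusted p = 0.0416). Among 12 tested transporters, Slc38a2, a carrier of neutral amino acids, was higher at 1.01 (adjusted p = 0.0346). None of the 6 tested genes of cofactor synthesis and mitochondrial carriers was called, Nags and the ornithine carrier Slc25a15 included, nor any of 9 genes of the amino acid deprivation response. Aldh4a1, Kyat3, Pcca, Slc38a2 and Agmat lost the call in 2 to 5 of the 6 fits that left out 1 library, with adjusted p up to 0.169, each of them without water liver 2 and without NMN liver 3. Gamt lost it in none.

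Transcription factors known to act on these pathways were tested as a list of 12. Creb1, which responds to cAMP, was higher at 1.19 (SE 0.23, adjusted p = 0.0161), and Klf15, an inducer of amino acid breakdown in fasting, was higher at 0.67 (adjusted p = 0.0346). Cebpa, a hepatocyte factor known for its place upstream of urea cycle genes, was lower at -0.59 (adjusted p = 0.0489). The other 9 were not called, and the list had a median of 0.39. Leaving out 1 library ended the call of Creb1 in 2, of Klf15 in 4 and of Cebpa in 5 of 6 fits, each time with water liver 2 and NMN liver 3 among those left out, and with adjusted p up to 0.206.

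Zonation markers were read beside the Glul result. Of 10 pericentral hepatocyte markers, 9 had negative estimates at 2680 mg/kg/d, with a median of -0.31, and 1, Oat, was called. Their sum, most of it Cyp2e1, was 14946 to 19991 CPM in the water livers and 10662 to 16293 CPM in the NMN livers, and overlapped. Cyp2e1 itself was at -0.42 (SE 0.16, adjusted p = 0.147), Slc1a2, a glutamate transporter of the same cells, at -0.61 (SE 0.19, adjusted p = 0.0699), and Rhbg, an ammonium transporter, at -1.29 (SE 0.40, adjusted p = 0.0765) from 4.54 CPM. Axin2 and Tbx3, targets of the Wnt signal of that zone, were at -0.21 (SE 0.33) and -0.05 (SE 0.23), and Gulo at -0.04 (SE 0.17). Of 8 periportal markers, 4 were above and 4 below 0, with Hsd17b13 called higher (0.65) and Cyp2f2 lower (-0.51), and their sum was 4271 to 5262 CPM with water and 5047 to 5855 CPM with NMN. Among 6 hepatocyte markers, Ttr (-0.97) and Serpina1c (-0.58) were called lower and the sum was 209322 to 242024 CPM with water and 157367 to 179984 CPM with NMN, most of it Alb. From the lists of other cell types, 3 genes were called lower as well, Slc22a7, an anion transporter also made by hepatocytes (-1.78), Alas2, the erythroid heme enzyme (-1.72), and Cela1, an elastase (-2.17), while none of the 4 globin genes was called and the pancreas markers Pnlip and Cpa1 were at 0 in these 6 libraries. Leaving out 1 library ended the call of Cyp2f2 in 5, of Hsd17b13 in 4 and of Serpina1c in 3 of 6 fits, with adjusted p up to 0.181. All 3 calls were lost without water liver 1, without water liver 2 and without NMN liver 3. Hsd17b13 and Cyp2f2 were also lost without water liver 3, and Cyp2f2 without NMN liver 2. None of the markers of macrophages, endothelium, stellate cells or bile ducts was called. The part of any shift in cell types in the Glul value was not tested.

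The direct tests between schedules and between organs were weaker than the call itself. In liver, the Glul response at 2680 mg/kg/d minus that at 1340 mg/kg/d was -1.21 on the log2 scale (SE 0.25), with an adjusted p of 0.0907 in edgeR and 0.00269 in DESeq2. Without NMN liver 3 of the 2680 mg/kg/d schedule it was -1.43 with an adjusted p of 0.0255. The background for this difference was 0.0746% of 13412 genes. At 2680 mg/kg/d, the Glul response in liver minus that in kidney was -1.38 (SE 0.34, adjusted p = 0.0464), 1 of 9 genes called against a background of 2.65% of 15811. That call was lost in 8 of 12 fits that left out 1 library, with adjusted p up to 0.124, among them all 3 fits without a water liver, all 3 without a water kidney, and those without NMN kidney 2 or 3. It was also lost without TMM factors (-1.22, adjusted p = 0.0531). At 1340 mg/kg/d the organ difference was -0.63 (SE 0.22, adjusted p = 0.69) where edgeR called 0% of 15614 genes, with 904 at an unadjusted p under 0.05 and 26 called by DESeq2. No other gene of the group passed any of the 4 difference tests, and the kidney schedule test called 0.00625% of 15989 genes.

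In kidney edgeR called none of the genes at either dose. At an unadjusted p under 0.05 there were 4 of them at 1340 mg/kg/d and 1 at 2680 mg/kg/d, beside 1338 of 14972 and 1688 of 15245 genes tested, and DESeq2 called 0 and 1. The background was 0.120% of 14972 genes at 1340 mg/kg/d and 0.400% of 15245 at 2680 mg/kg/d. Otc at 1340 mg/kg/d and Cps1 and Otc at 2680 mg/kg/d were too low to be tested. Glul, which proximal tubules also express, was at 388, 444, 406 and 455 CPM with water and 750, 736, 535 and 411 with NMN at 1340 mg/kg/d. The NMN libraries were in 3 of 4 cases above all water libraries, and the estimate of 0.52 (SE 0.16) had an adjusted p of 0.304 in edgeR. Leaving out the lowest NMN kidney, replicate 4, gave 0.67 with an adjusted p of 0.0325 in edgeR. Without the filter on low counts edgeR gave 0.53 (SE 0.099) with an adjusted p of 4.65e-05. That fit called many more genes among all genes as well, as given below. The exact permutation test over these kidney libraries gave p = 0.0857 for Glul, where the smallest it can give is 0.0286. At 2680 mg/kg/d the Glul kidneys were at 299, 440 and 422 CPM with water and 277, 466 and 454 with NMN, a difference of 0.05 (SE 0.24, interval -0.54 to 0.64). The liver estimate at that dose lay outside this interval, which leaves out that estimate's own error. The direct test between the organs is the one given above.

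Ass1 and Asl, the arginine-making pair of the kidney, had negative estimates at 1340 mg/kg/d without a call. Ass1 was at 1366, 1025, 1260 and 1091 CPM with NMN, all below the 4 water kidneys, with a log2 fold change of -0.33 (SE 0.10, adjusted p = 0.263 in edgeR). Asl was at 168 ± 15.2 CPM with water and 131 ± 22.6 with NMN (-0.36, SE 0.11, adjusted p = 0.299), with 1 NMN library, at 155 CPM, inside the water range. Without the filter on low counts, where many more of all genes were called, Asl was called too (adjusted p = 0.0474 in edgeR). At 2680 mg/kg/d the estimates were -0.11 (SE 0.14) and 0.09 (SE 0.09). The difference between schedules was 0.22 (SE 0.17) for Ass1 and 0.45 (SE 0.16) for Asl, with adjusted p of 0.999 for each. Cps1 at 1340 mg/kg/d was at 1.73 ± 0.495 CPM with water and 2.25 ± 0.890 with NMN, a log2 difference of 0.38 with an interval of -0.29 to 1.05. Got2 had no overlap at that dose, at 178 ± 8.97 CPM with water and 159 ± 5.07 with NMN (-0.16, SE 0.08). Non-overlap toward lower values was seen for 2.69% of all genes there.

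Gpt came closest to a call in kidney. At 2680 mg/kg/d its water kidneys were at 15.4, 14.8 and 13.5 CPM and its NMN kidneys at 18.3, 20.3 and 21.9. The groups did not overlap, as for 8.11% of all genes in that direction, and the estimate was 0.47 (SE 0.10, interval 0.25 to 0.70, adjusted p = 0.0781 in edgeR and 0.0275 in DESeq2). Without NMN kidney 1 it was 0.53 with an adjusted p of 0.0337. At 1340 mg/kg/d it was 0.30 (SE 0.13, adjusted p = 0.487). Liver estimates of the same gene were 0.07 and 0.08, and the organ differences had adjusted p of 0.997 and 0.367. Gpt2 in kidney was at 0.16 (SE 0.24) and Got1 at 0.09 (SE 0.10) at 1340 mg/kg/d. Gpt2, Got1 and Got2 lay between 0.0004 and 0.11 at 2680 mg/kg/d.

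Kidney tubule markers were read beside these values. The sum of 6 markers, most of it Kap, was 22726 to 24427 CPM with water and 17026 to 21037 CPM with NMN at 2680 mg/kg/d, and 20696 to 27518 and 16309 to 21293 CPM at 1340 mg/kg/d. All 5 markers of the S1 and S2 segments of the proximal tubule had negative estimates at 2680 mg/kg/d, with a median of -0.13. Their sums overlapped, at 1723 to 2014 CPM with water and 1395 to 2003 CPM with NMN. At 1340 mg/kg/d 4 of these markers were below and 1 above 0, with a median of -0.21. The sums there overlapped too, at 1784 to 2100 CPM with water and 1560 to 2107 CPM with NMN. Of 5 markers of the S3 segment, 3 were below and 2 above 0 at each dose. None of these markers was called at either dose. Their part in the kidney values of Ass1, Asl, Got2, Gpt, Slc38a3 and Glud1 was not tested.

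Of the other lists in kidney, 2 genes passed at 1340 mg/kg/d and none at 2680 mg/kg/d. The background was 0.120% and 0.400% of all genes tested. The 2 were 1 of 17 tested transporters and 1 of 8 tested genes of the amino acid deprivation response. All 8 had positive estimates at 1340 mg/kg/d, with a median of 0.98 on the log2 scale. At 2680 mg/kg/d 5 of them were above and 3 below 0. Slc38a3, the glutamine carrier that feeds renal ammonia formation, rose from 42.2, 46.0, 46.3 and 43.7 CPM to 117, 112, 76.7 and 78.1 (1.10, SE 0.13, adjusted p = 0.00163 in edgeR). It was called in each of the 8 fits that left out 1 library. At 2680 mg/kg/d its NMN kidneys were at 118, 154 and 213 CPM and its water kidneys at 61.6, 53.9 and 48.7, with no overlap (1.57, SE 0.23, adjusted p = 0.0666). Asns, asparagine synthetase, was higher at 1340 mg/kg/d by 1.37 (adjusted p = 0.0393), from 3.35 ± 0.499 to 8.67 ± 3.45 CPM, and lost the call without any 1 of the water kidneys or without NMN kidney 1, with adjusted p up to 0.142. Glud1, which was lower in liver at 2680 mg/kg/d, was at 393 ± 33.6 CPM with water and 601 ± 110 with NMN in kidney at that dose, with no overlap (0.62, SE 0.13, adjusted p = 0.0736).

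Across the 14 livers, after the schedule means were subtracted, the pair of genes most like Glul among 9369 with a mean of at least 5 CPM was Glrx, a glutaredoxin (Pearson r = 0.95), and Cyp2d40, a cytochrome P450 (r = 0.948). The points share libraries and include those of the comparison above, so this is a description. With NMN at 2680 mg/kg/d Glrx went from 42.3 ± 3.14 to 18.5 ± 6.45 CPM and Cyp2d40 from 111 ± 32.5 to 30.9 ± 12.8. Within the group, the r of Glul was highest with Cps1 in liver (0.57) and with Gpt2 in kidney (0.67), each over 14 libraries.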

How the data were processed

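Per the methods of the study, alignment was done with STAR and unstranded gene-level counting with HTSeq-count, and the authors deposited 1 table of raw counts per library. The build they name, mm19, is not a known mouse build, so gene positions are not given beyond the RefSeq promoter windows. Of 54446 gene IDs, 53229 matched GENCODE vM21 with version and 1180 without. The closing HTSeq rows that name no gene, 18.6% to 29.3% of reads, were left out.

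Counts were tested with edgeR 4.0.16 (R 4.3.3): filterByExpr, TMM factors, robust quasi-likelihood fit and 2-sided F test, with Benjamini-Hochberg adjustment over all genes tested in a comparison and a call at an adjusted p under 0.05. All adjusted p-values are from this test unless DESeq2 1.42.0 is named. NMN was compared with water within each organ and schedule, liver with kidney in water mice, and responses between schedules and organs by interaction contrasts. Printed levels are CPM scaled by TMM factors over all 28 libraries. Correlations between genes and the permutation test used log2(CPM + 0.1), and the check of pairing between libraries log2(CPM + 0.5). Motif shares were counted in RefSeq promoter windows. Scripts were tested on simulated counts. Alternatives were DESeq2, other scalings and filters, no robust estimation, a replicate block, 1 fit per organ, a stricter threshold, and leaving out each library. Fits without scaling factors were added after seeing the data.

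The 9 genes and the pathway and marker lists were chosen with earlier results of these data known. All 9 genes are named in each comparison, and from other lists up to 3 called genes per direction. Cyp2e1, Alb and Umod checked the organ labels, the 2 genes most like Glul are given by Pearson r, and genes named without a call were chosen after their values were seen. No replicate pair of libraries differed by less than sampling noise (lowest chi-square per degree of freedom 6.67). Of the genes first listed for the group, 1 is not reported here. The sequencing run of each library is not given in the sources used here.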

Additional observations from a re-analysis of the deposited data

Results flagged for a closer look

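Among the 36 groups of 4 libraries, 9 genes in 4 groups, 1 library stood apart. Cps1 in water liver 3 of the 1340 mg/kg/d schedule was at 4243 CPM, while the other 3 were between 3347 and 3494 CPM. Chance sets a library apart in about 1 in 20 such groups. In the fit of NMN against water in liver at 1340 mg/kg/d that left out that library, none of the 9 genes was called.

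For Glul at 2680 mg/kg/d, the response to NMN in liver minus that in kidney was -1.38 on the log2 scale (SE 0.34, adjusted p = 0.0464 in edgeR). The call was lost in 8 of 12 fits that left out 1 library, with adjusted p up to 0.124, and without TMM factors (adjusted p = 0.0531). The same difference was called for 2.65% of 15811 genes. It was also called for 6 genes that the text names because they were called in liver or kidney, so their number says nothing of its own. Glud1 was at -1.47, Oat at -1.19, Gamt at -1.56 and Slc38a3 at -1.92, each lower in liver relative to kidney. Creb1 was at 1.48 and Cela1 at -1.88. Glud1 was called lower in liver and had a higher estimate in kidney without a call, and Slc38a3 had higher kidney values with NMN at both doses. The kidney libraries with NMN were all larger than their water libraries at that dose, at 22922994 to 33872983 against 16358886 to 18983689 counted reads. The part of depth in these differences was not tested.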

How the results depend on the processing

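Glul in liver at 2680 mg/kg/d was called under each alternative run, all 6 fits without 1 library included. The replicate numbers were not taken as pairs, since not every pair of same-numbered libraries had a correlation of deviations over 0.1. That does not show that the samples were unpaired. Between liver and kidney of water mice these correlations were 0.0851 to 0.273 at 1340 mg/kg/d and 0.0876 to 0.207 at 2680 mg/kg/d. With a replicate block the genes called were 16 in liver and 75 in kidney at 1340 mg/kg/d, 92 in kidney at 2680 mg/kg/d, 2 for the schedule difference in kidney and 2 for the organ difference at 1340 mg/kg/d, and Glul in liver at 2680 mg/kg/d was at -1.37. With the block none of the 9 genes gained or lost a call, and of the other named genes Cyp2f2 lost its call in liver at 2680 mg/kg/d (-0.52).

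DESeq2 called 74 and 1448 genes in liver at 1340 and 2680 mg/kg/d, 159 and 236 in kidney, 99 and 10 for the schedule difference in liver and kidney, and 26 and 1232 for the organ difference. Without a filter on low counts these were 44, 1785, 269, 514, 71, 106, 9 and 1307. The stricter threshold, a fold change over 2 or under 0.5 at an adjusted p under 0.01, left 0, 135, 2 and 3 genes in the NMN comparisons. Fits of all 14 libraries of an organ called 6 in liver at 1340 mg/kg/d and 35 in kidney at 2680 mg/kg/d. Without robust estimation 5 were called in kidney at 1340 mg/kg/d. For the schedule difference in kidney, 0 were called with upper quartile scaling, with at least 10 counts in every library, without robust estimation and without scaling factors. Of the 9 genes, DESeq2 and no filter each called 1 in kidney at 2680 mg/kg/d (Gpt) and 1 for the schedule difference in liver (Glul), and no filter called 2 in kidney at 1340 mg/kg/d (Glul and Asl).

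Cebpa and Cyp2f2 in liver at 2680 mg/kg/d also lost their call with DESeq2's size factors, without robust estimation and with all 14 libraries of the organ, and Asns in kidney at 1340 mg/kg/d lost it with the last 2 of these and with upper quartile scaling. Without scaling factors the median log2 difference of all genes was 0.15 in place of 0.004 in liver at 2680 mg/kg/d, and Pcca, Agmat, Cebpa and Cyp2f2 lost their call there. Between the organs it was -1.05 and -1.10 in place of -0.10 and -0.17, and the share of all calls that were higher in liver was 14.2% and 15.1% in place of 46.1% and 44.0%. For the organ difference in response at 2680 mg/kg/d, 372 were higher and 154 lower in place of 166 and 253. Ass1 between the organs at 1340 mg/kg/d turned to -0.038, Got2 in liver at 1340 mg/kg/d to 0.0069, 0 of the 9 genes were called for the organ difference at 2680 mg/kg/d, and 2 genes in all for that at 1340 mg/kg/d. Got2 in kidney at 2680 mg/kg/d turned to -0.0018 with DESeq2, -0.0025 with its size factors, -0.0035 with upper quartile scaling and -0.0049 with all 14 libraries.

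Leaving out 1 library gave 0 to 18 and 211 to 1308 genes called in liver, 5 to 67 and 3 to 191 in kidney, 7 to 25 and 0 to 1 for the schedule difference, and 0 to 9 and 118 to 1347 for the organ difference. Of the 9 genes, 0 to 1 were called in kidney at either dose, for the schedule difference in liver and for the organ difference at 2680 mg/kg/d. Estimates that crossed 0, none of them called, were in liver at 1340 mg/kg/d Gpt (-0.026 to 0.11), Got1 (-0.28 to 0.024) and Got2 (-0.050 to 0.020). In liver at 2680 mg/kg/d they were Otc (-0.015 to 0.11), Asl (-0.058 to 0.33), Gpt (-0.056 to 0.26), Gpt2 (-0.30 to 0.044) and Got1 (-0.44 to 0.024). In kidney they were Gpt2 at 1340 mg/kg/d (-0.049 to 0.35) and, at 2680 mg/kg/d, Ass1 (-0.26 to 0.053), Glul (-0.11 to 0.25), Gpt2 (-0.0079 to 0.21) and Got2 (-0.022 to 0.019). The causes of these changes were not tested.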
